A study of Homo sapiens with 8 samples.

Results

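The HOX cluster genes were taken as every gene row whose symbol is HOX, a cluster letter from A to D and a paralogue number, which left out antisense and other cluster transcripts. This gave 39 of the 56832 gene rows, namely 11 in HOXA on chr7, 10 in HOXB on chr17, 9 in HOXC on chr12 and 9 in HOXD on chr2. In GENCODE 29 (GRCh38) HOXA lies on the minus strand, and the other clusters span chr17:48528526-48729178 (HOXB, minus strand), chr12:53938765-54056030 (HOXC, plus strand) and chr2:176092891-176190907 (HOXD, plus strand). Expression was measured by RNA-seq of ribosome-depleted total RNA from Nthy-ORI cells, an immortalised epithelial line from normal human thyroid. The 8 libraries fell into 4 groups of 2, which were T3 for 24 h, vehicle for 24 h, T3 for 6 h and vehicle for 6 h. T3, the active thyroid hormone, was used at 10 nM and the vehicle was NaOH. Cells of every group had first been held for 24 h in medium depleted of hormone. The labels do not state whether the 2 libraries of a group stem from separate cultures, and a p-value here reflects only how far such libraries lie apart, a spread that may be technical.

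HOX genes encode homeodomain transcription factors that give cells a positional identity along the body axes. Within each cluster the genes lie in the order of their paralogue numbers, with low numbers used in anterior and high numbers in posterior and distal structures. Polycomb complexes keep HOX genes silent and trithorax complexes keep them active, so a cell lineage usually carries its HOX pattern through culture. Members of the TALE family (PBX, MEIS and PKNOX) bind DNA together with HOX proteins. The thyroid comes from the anterior foregut, and in mice the third paralogue group, above all Hoxa3, is needed for normal development of the thyroid, parathyroid and thymus.

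The libraries labelled 24 h and 6 h carried different HOX patterns. In the 24 h libraries HOX reads came almost entirely from the HOXB and HOXC clusters, while in the 6 h libraries they came mostly from posterior HOXA genes, with posterior HOXD, HOXC10 and HOXB7 beside them. HOXA10, HOXA13 and HOXD10, which pattern the limbs and the urogenital tract, had no read in any 24 h library, against 65.2 to 79.8, 63.9 to 101.8 and 28.8 to 36.3 CPM in the 6 h libraries. CPM is a gene's count per 1e6 gene counts of its library, with library sizes scaled by TMM. HOXB4, an anterior member, was higher at 24 h.

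Total gene counts were 3957592 to 8201606 in the 24 h libraries and 2517983 to 5450752 in the 6 h libraries. A limit of 3 reads over the 4 libraries of a time, the most that a count of 0 allows, was 0.114 CPM at 24 h and 0.221 CPM at 6 h. Such limits and the 95% intervals below cover counting error only. KLF9, a direct target of the thyroid hormone receptor, checked the treatment labels. It stood at 2.78 and 3.34 CPM in T3 libraries against 20.7 and 31.3 CPM in vehicle libraries at 24 h, and at 13.4 and 14 CPM in T3 libraries against 0.9 and 0.815 CPM in vehicle libraries at 6 h. HR, another such target, was also lower in the libraries labelled T3 at 24 h (log2 fold change -4.19, SE 0.51, adjusted p = 0.000281) and higher in T3 libraries at 6 h (0.77, SE 0.17, adjusted p = 0.012). Both genes thus went against the 24 h treatment labels, and T3 and vehicle at 24 h are groups as labelled below. A mean over the 4 libraries of a time does not use these labels.

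Promoter sequences from RefSeq (GRCh38.p14, from 250 bases before to 50 after a transcript start) were matched by symbol for 20 of the 39 genes. They gave 26 distinct HOX promoters. Several of these were alternative starts of HOXA3, HOXB1 was the only HOXB gene matched, and HOXC4 and HOXC5 the only HOXC genes. Most genes with reads at 24 h thus had no window. Shares over the windows describe the matched starts and not the 39 genes. The first 3 below belong to genes with strong signal at 6 h and 0 or 2 reads at 24 h, and the last to HOXD8, the only member with reads at 24 h and none at 6 h. Capitals mark CpG dinucleotides, at which DNA methylation takes place, and bases run 5′ to 3′ on the gene's strand. HOXA13 lies at chr7:27200042-27200341 (minus strand), HOXA11 at chr7:27185183-27185482 (minus strand), HOXD10 at chr2:176116528-176116827 (plus strand) and HOXD8 at chr2:176129455-176129754 (plus strand).
HOXA13: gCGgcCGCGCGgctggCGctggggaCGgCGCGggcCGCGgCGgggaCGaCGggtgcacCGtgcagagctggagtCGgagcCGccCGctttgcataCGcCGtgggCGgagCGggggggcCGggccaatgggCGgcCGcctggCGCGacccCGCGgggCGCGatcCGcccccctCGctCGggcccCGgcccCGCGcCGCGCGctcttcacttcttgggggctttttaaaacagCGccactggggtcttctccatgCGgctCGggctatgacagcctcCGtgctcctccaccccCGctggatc
HOXA11: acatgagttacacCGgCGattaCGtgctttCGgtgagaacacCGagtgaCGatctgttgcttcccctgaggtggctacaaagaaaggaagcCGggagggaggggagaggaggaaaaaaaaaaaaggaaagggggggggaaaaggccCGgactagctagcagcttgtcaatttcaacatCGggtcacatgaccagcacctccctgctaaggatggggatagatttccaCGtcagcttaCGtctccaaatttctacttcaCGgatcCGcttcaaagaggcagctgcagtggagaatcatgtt
HOXD10: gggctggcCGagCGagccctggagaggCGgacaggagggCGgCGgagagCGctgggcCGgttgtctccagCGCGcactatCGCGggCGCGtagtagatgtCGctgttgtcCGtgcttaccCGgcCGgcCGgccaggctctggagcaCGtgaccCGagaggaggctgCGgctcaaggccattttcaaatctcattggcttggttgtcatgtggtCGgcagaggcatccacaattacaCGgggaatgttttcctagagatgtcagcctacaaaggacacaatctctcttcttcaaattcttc
HOXD8: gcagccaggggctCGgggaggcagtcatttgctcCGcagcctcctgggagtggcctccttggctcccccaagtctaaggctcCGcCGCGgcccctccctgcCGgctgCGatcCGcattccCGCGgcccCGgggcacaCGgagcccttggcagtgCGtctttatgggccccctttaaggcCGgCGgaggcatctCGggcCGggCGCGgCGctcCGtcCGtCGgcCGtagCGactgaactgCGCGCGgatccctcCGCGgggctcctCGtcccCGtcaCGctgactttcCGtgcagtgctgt
These windows held 44 CpG in HOXA13, 13 in HOXA11, 23 in HOXD10 and 34 in HOXD8. The median over the 26 HOX promoters was 22.5 CpG, against 14 over the 35116 promoters of the table. CpG number did not divide the matched genes by reads, since HOXA11 lay below the median of all promoters, while HOXD1 (36 CpG) and HOXA4 (27 CpG), with no read in any library, lay above it. The letters AGGTCA, the core of a thyroid hormone receptor site, were searched on both strands and occurred in 0 of the 26 windows, against 13.8% of all promoters. The letters TATAAA, also on both strands, occurred in 5 windows (19.2%), against 11.5% of all promoters.

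Summed over the 39 genes, HOX expression was 30.9 and 30.1 CPM in T3 and 37.8 and 46.4 CPM in vehicle libraries at 24 h. At 6 h it was 402.5 and 401.9 CPM in T3 and 356.8 and 359.9 CPM in vehicle libraries. The 4 libraries of each time lay together and far from those of the other time. HOXA averaged 0.252 ± 0.431 CPM at 24 h and 228.6 ± 31.8 CPM at 6 h (SD, n = 4 each here and below). HOXD averaged 0.304 ± 0.288 CPM at 24 h and 47.8 ± 4.55 CPM at 6 h. HOXB averaged 18.2 ± 3.86 CPM at 24 h and 49.5 ± 3.67 CPM at 6 h, and HOXC 17.5 ± 5.25 CPM at 24 h and 54.4 ± 4.91 CPM at 6 h. So HOXA and HOXD were close to 0 at 24 h, while HOXB and HOXC were present at both times at a lower level at 24 h.

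**Figure D1:**
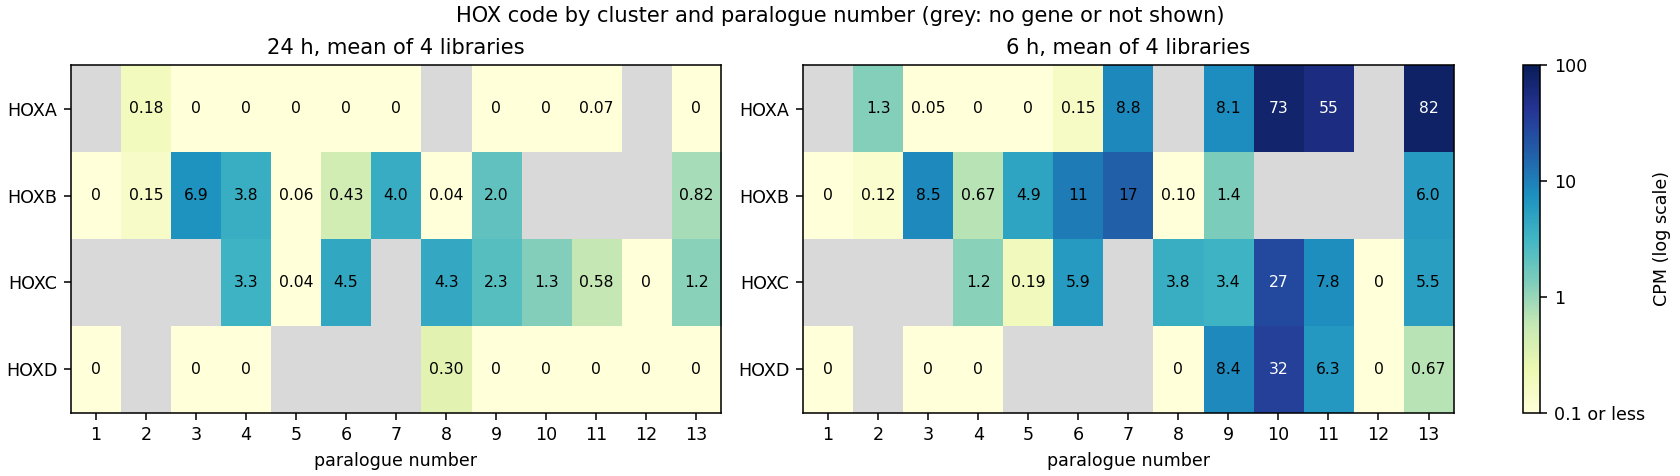
Mean expression of each HOX gene in CPM (colour, log scale) by cluster (rows) and paralogue number (columns), in the 24 h libraries (left) and the 6 h libraries (right), 4 libraries each. The HOXA and HOXD rows are nearly empty at 24 h, while HOXA10, HOXA11 and HOXA13 and HOXD10 stand out at 6 h.

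The share of HOX reads by paralogue number moved with the clusters. Paralogues 9 to 13 gave 23.1% of HOX reads at 24 h (exact binomial 95% interval 20.4 to 25.9) and 83.2% at 6 h (82.2 to 84.2). Paralogues 4 to 8 gave 55.7% at 24 h (52.4 to 58.9) and 14.2% at 6 h (13.2 to 15.1). Paralogues 1 to 3 gave 21.3% at 24 h (18.7 to 24) and 2.62% at 6 h (2.2 to 3.09), most of it from HOXB3. The bands moved less in absolute level than in share at the anterior end. Paralogues 1 to 3 summed to 7.25 ± 2 CPM at 24 h and 10 ± 0.75 CPM at 6 h. Paralogues 4 to 8, the larger share at 24 h, had a lower level there, with 20.8 ± 6.64 CPM at 24 h and 53.4 ± 5.62 CPM at 6 h. Paralogues 9 to 13 summed to 8.29 ± 2.43 CPM at 24 h and 316.9 ± 27.7 CPM at 6 h. Within HOXC alone, paralogues 4 to 8 summed to 12.2 ± 4.17 CPM at 24 h and 11 ± 1.6 CPM at 6 h, and paralogues 9 to 13 to 5.35 ± 1.95 CPM at 24 h and 43.3 ± 3.76 CPM at 6 h. In HOXB, by contrast, paralogues 4 to 8 summed to 8.29 ± 3.26 CPM at 24 h and 33.4 ± 3.86 CPM at 6 h, since HOXB5, HOXB6 and HOXB7 were all lower at 24 h.

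**Figure D2:**
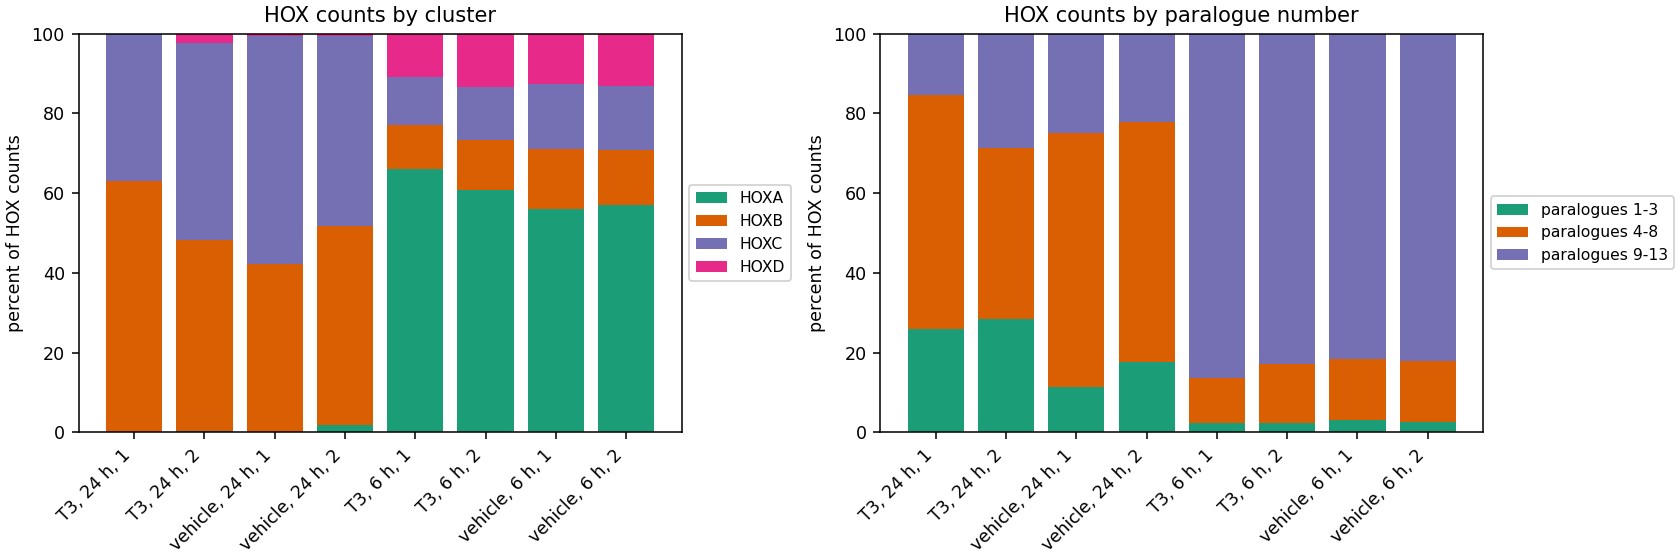
Percent of each library's HOX counts by cluster and by paralogue band, for T3 and vehicle libraries at 24 h and then at 6 h. At 24 h HOXB and HOXC together make up nearly all counts in each library, and at 6 h HOXA makes up 56.1 to 66.1%.

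HOXA held the largest differences in level. HOXA13 and HOXA11, which pattern the limb and the genital tract, and HOXA10, which patterns the uterus and the limb, made up most of it at 6 h. HOXA13 had 0 reads in the 4 libraries at 24 h and 101.8, 89.4, 63.9 and 73.4 CPM at 6 h, the T3 libraries given before the vehicle libraries here and below. That is 0 against 1121 reads, at least 726.1-fold lower at 24 h (adjusted p = 7.82e-14). HOXA10 had 0 reads at 24 h and 79.8, 76.2, 71.1 and 65.2 CPM at 6 h, at least 646.4-fold lower at 24 h (adjusted p = 8.87e-14). Both genes were high in each 6 h library and no 24 h library had a read, although the limit of 3 reads in a single 24 h library was 0.421 to 0.822% of the 6 h mean of HOXA13. HOXA11 had 0, 0, 0 and 0.298 CPM at 24 h and 65.7, 57, 48.6 and 48.9 CPM at 6 h. Its 2 reads at 24 h were both in vehicle library 2, against 748 at 6 h, a ratio of 726.7-fold lower at 24 h (interval 200.5 to 6012.1, adjusted p = 2.41e-13).

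HOXA7 and HOXA9, which act in trunk patterning and in blood progenitors, were also counted at 6 h only. HOXA7 had 0 reads at 24 h and 9.02, 11.2, 7.5 and 7.34 CPM at 6 h, at least 80.3-fold lower at 24 h (adjusted p = 2.06e-08). HOXA9 had 0 reads at 24 h and 7.94, 8.42, 7.2 and 8.97 CPM at 6 h, at least 71.2-fold lower at 24 h (adjusted p = 3.64e-08). The groups of 4 did not overlap for either gene. The anterior members of the cluster were at or near 0 at both times. HOXA2, a hindbrain and second branchial arch gene, had 5 reads at 24 h and 17 at 6 h (6.61-fold lower at 24 h, interval 2.34 to 22.9) and was too low to be tested. HOXA3 had 0 reads at 24 h and 1 at 6 h, and HOXA6 had 0 at 24 h and 2 at 6 h. HOXA4 and HOXA5 had no read in any of the 8 libraries. At 6 h the cluster was thus read from HOXA7 to HOXA13, and at 24 h hardly at all. Each gene from HOXA3 to HOXA6 had at most 2 reads at 6 h.

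HOXD had the same division. HOXD10, which patterns the limb and the lumbosacral spinal cord, had 0 reads at 24 h and 30.3, 36.3, 28.8 and 34.6 CPM at 6 h, at least 288.9-fold lower at 24 h (adjusted p = 8.53e-12). HOXD9 had 0 reads at 24 h and 6.86, 8.82, 9.6 and 8.15 CPM at 6 h, at least 74.5-fold lower at 24 h (adjusted p = 2.99e-08). HOXD11, a forearm and kidney gene, had 0 reads at 24 h and 6.5, 8.02, 6.9 and 3.67 CPM at 6 h, at least 58.3-fold lower at 24 h (adjusted p = 2.52e-07). Each of these genes was present in all 4 libraries at 6 h and in none at 24 h. HOXD13, a digit gene, was too low to be tested, with 0 reads at 24 h and 10 at 6 h (at least 6.48-fold lower at 24 h). HOXD8 had 9 reads at 24 h, in 3 of the 4 libraries, and 0 at 6 h (at least 1.54-fold higher at 24 h), also untested. HOXD1, HOXD3, HOXD4 and HOXD12 had no read in any library.

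**Figure D3:**
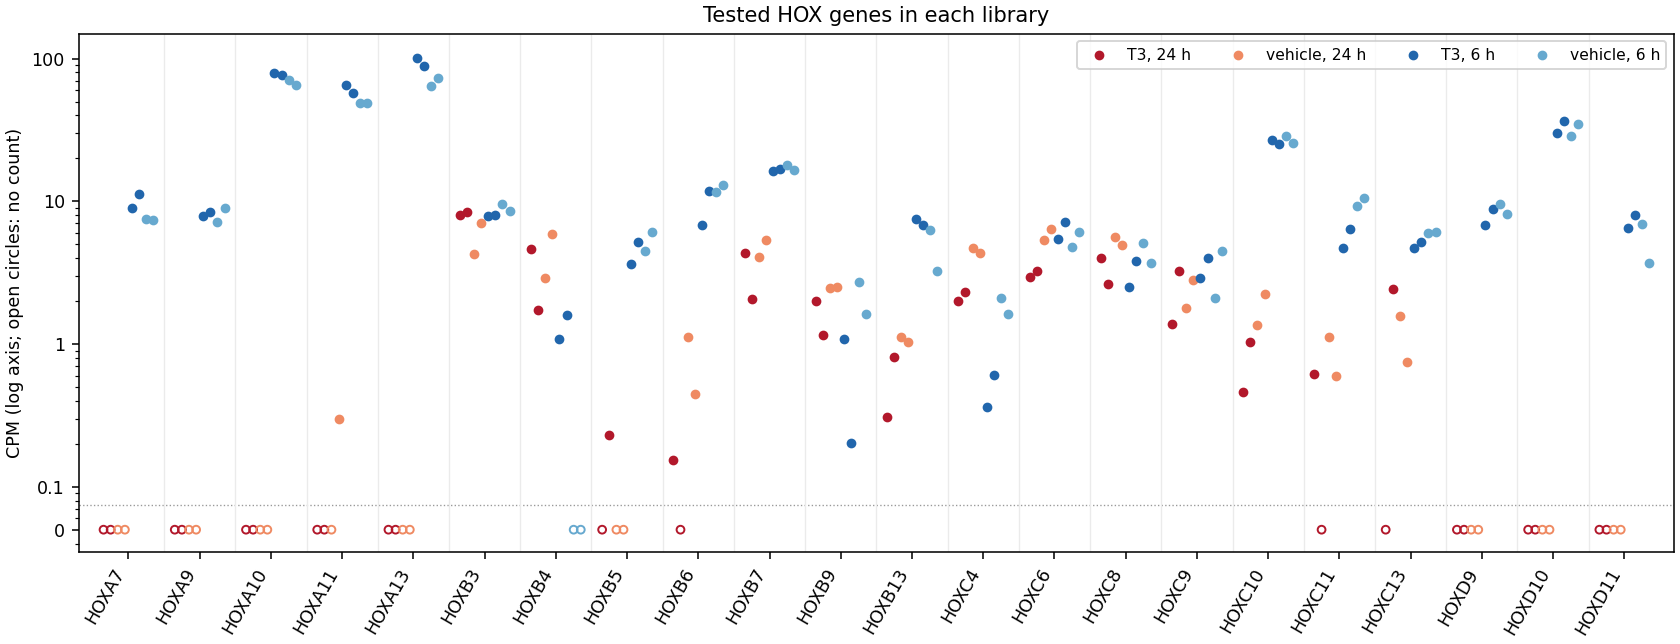
CPM (log axis) of the 22 tested HOX genes in each of the 8 libraries, coloured by group with the 24 h groups before the 6 h groups, and open circles for libraries without a read. HOXA13, HOXA10, HOXD10 and 4 further genes have only open circles at 24 h, while HOXB3, HOXC6, HOXC8 and HOXC9 overlap between the times.

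HOXB changed gene by gene. HOXB7, which acts in trunk patterning, had 4.32, 2.07, 4.05 and 5.36 CPM at 24 h and 16.2, 16.8, 18 and 16.7 CPM at 6 h (log2 fold change -2.13, SE 0.25, adjusted p = 6.24e-07). It was the highest HOXB gene at 6 h and remained counted in every 24 h library. HOXB6 had 0.154, 0, 1.12 and 0.447 CPM at 24 h and 6.86, 11.8, 11.7 and 13 CPM at 6 h (log2 fold change -5.37, SE 0.49, adjusted p = 2.21e-08). HOXB5, used in foregut and lung development, had 2 reads at 24 h and 66 at 6 h, a ratio of 64.1-fold lower at 24 h (interval 17.1 to 540.5, adjusted p = 1.48e-06). HOXB13, a prostate and hindgut gene at the far posterior end, had 0.309, 0.807, 1.12 and 1.04 CPM at 24 h and 7.58, 6.82, 6.3 and 3.26 CPM at 6 h (log2 fold change -2.86, SE 0.45, adjusted p = 1.68e-05). None of these 4 genes had overlapping groups. With GC and length trends removed the values were -4.70 for HOXB6 and -2.13 for HOXB13, and without T3 library 1 of 24 h that for HOXB6 was -6.28.

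HOXB4, which promotes the self-renewal of blood stem cells, was higher at 24 h. It had 4.63, 1.73, 2.92 and 5.95 CPM at 24 h and 1.08, 1.6, 0 and 0 CPM at 6 h. Over the pooled libraries that is 98 against 11 reads, 4.58-fold higher at 24 h (interval 2.45 to 9.49, adjusted p = 0.000357), and the groups did not overlap. The T3 libraries had 45 reads at 24 h and 11 at 6 h (2.09-fold higher, interval 1.07 to 4.49, adjusted p = 0.16), and the vehicle libraries 53 reads at 24 h and 0 at 6 h (at least 9.16-fold higher, adjusted p = 0.000593), and the test of the difference between the treatments did not pass (adjusted p = 0.132). HOXB3, of the paralogue group that acts in the pharyngeal glands, had 8.02, 8.41, 4.27 and 7 CPM at 24 h and 7.94, 8.02, 9.6 and 8.56 CPM at 6 h, with no difference past the threshold (log2 fold change -0.31, SE 0.25, adjusted p = 0.265). HOXB9 had 2.01, 1.15, 2.47 and 2.53 CPM at 24 h and 1.08, 0.201, 2.7 and 1.63 CPM at 6 h (log2 fold change 0.83, SE 0.57, adjusted p = 0.191). Both genes overlapped between the times, and HOXB9 passed the threshold as higher at 24 h after removal of GC and length trends (1.52, adjusted p = 0.0175). HOXB2 and HOXB8 had 4 and 1 reads at 24 h and 2 and 1 at 6 h, and HOXB1 had none.

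HOXC divided between its middle and its posterior genes. HOXC10, a lumbosacral and hindlimb gene, had 0.463, 1.04, 1.35 and 2.23 CPM at 24 h and 27.1, 25.3, 28.8 and 25.7 CPM at 6 h (log2 fold change -4.43, SE 0.26, adjusted p = 6.04e-11). HOXC11 had 0.617, 0, 1.12 and 0.595 CPM at 24 h and 4.69, 6.42, 9.3 and 10.6 CPM at 6 h (log2 fold change -3.91, SE 0.52, adjusted p = 2.58e-06). HOXC13, known for its part in hair and nail formation, had 0, 2.42, 1.57 and 0.744 CPM at 24 h and 4.69, 5.21, 6 and 6.11 CPM at 6 h (log2 fold change -2.17, SE 0.59, adjusted p = 0.00308). The groups did not overlap for these genes, but the call for HOXC13 was lost when GC and length trends were removed (-1.27, adjusted p = 0.0588). Without T3 library 2 of 24 h, which held most of its 24 h reads, the value for HOXC13 was -4.96, and without T3 library 1 of 24 h that for HOXC11 was -5.66.

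The middle genes HOXC6, HOXC8 and HOXC9, which mark thoracic levels of the trunk, overlapped between the times. HOXC8 had 4.01, 2.65, 5.62 and 4.91 CPM at 24 h and 2.53, 3.81, 5.1 and 3.67 CPM at 6 h (log2 fold change 0.13, SE 0.35, adjusted p = 0.747). HOXC6 had 2.93, 3.23, 5.4 and 6.4 CPM at 24 h and 5.41, 7.22, 4.8 and 6.11 CPM at 6 h (log2 fold change -0.46, SE 0.30, adjusted p = 0.171). HOXC9 had 1.39, 3.23, 1.8 and 2.83 CPM at 24 h and 2.89, 4.01, 2.1 and 4.48 CPM at 6 h (log2 fold change -0.50, SE 0.44, adjusted p = 0.307). Their levels were of the same order at both times, unlike those of their posterior neighbours, and the sign for HOXC9 turned to 0.43 (adjusted p = 0.378) when GC and length trends were removed. HOXC4 had 2.01, 2.3, 4.72 and 4.32 CPM at 24 h and 0.361, 0.602, 2.1 and 1.63 CPM at 6 h, and was called higher at 24 h (log2 fold change 1.64, SE 0.49, adjusted p = 0.00537), although a T3 library at 24 h lay below a vehicle library at 6 h. HOXC5 had 1 read at 24 h and 3 at 6 h, and HOXC12 had none in any library.

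**Figure D4:**
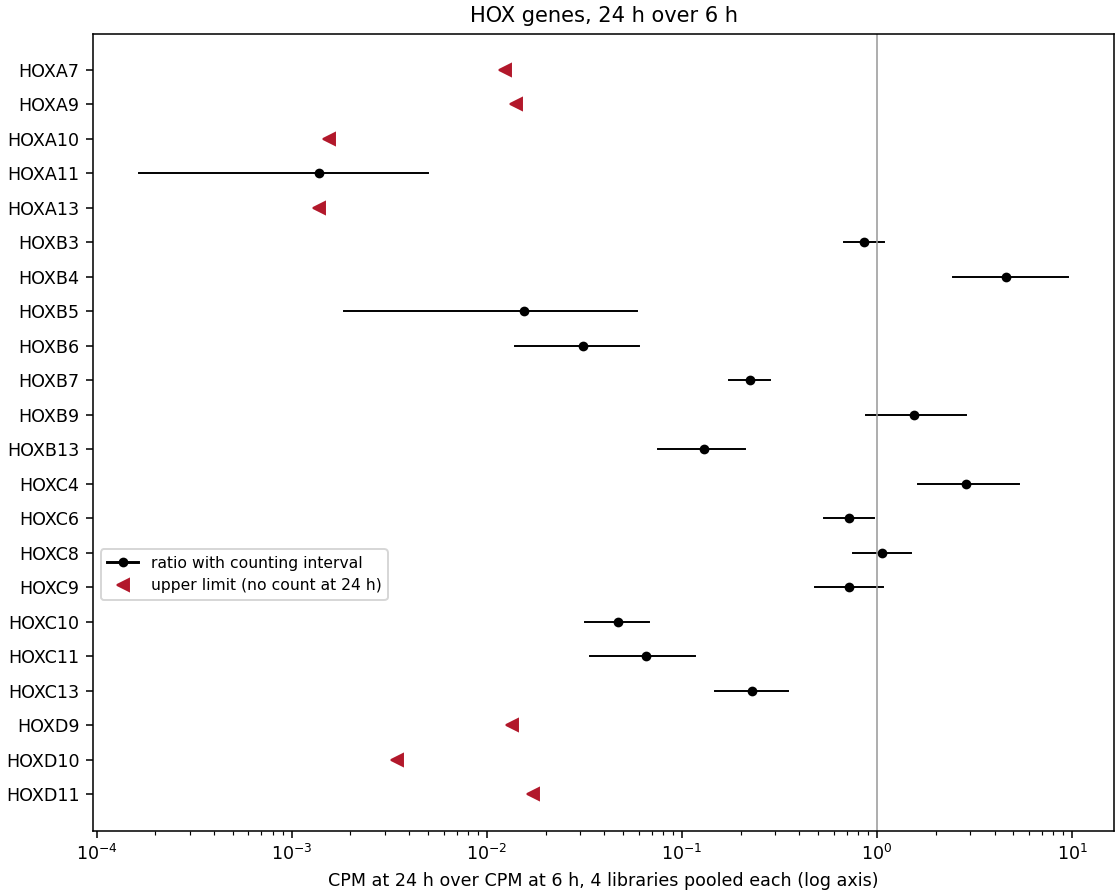
Ratio of pooled CPM at 24 h over 6 h (log axis) for HOX genes, with exact 95% counting intervals, and arrows for genes without a read at 24 h, placed at the upper limit that 3 reads give. HOXB4 and HOXC4 lie above 1, HOXB3, HOXB9, HOXC8 and HOXC9 have intervals that hold 1, and HOXA and posterior HOXD genes lie at the far left.

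The fit covered 14611 genes, among them 22 HOX genes, of which 17 passed an adjusted p of 0.05 in the contrast of 24 h with 6 h averaged over both treatments. This share has to be read against 77.1% of all tested genes that passed. In direction, 15 HOX genes were lower at 24 h (38.2% of all tested genes were) and 2 were higher (38.9% were). The groups of 4 did not overlap, with all 24 h libraries lower, for 15 of the 22 (32.8% of all tested genes) and with all 24 h libraries higher for HOXB4 (32.2%). No read at 24 h was found for 7 of the 22 HOX genes, against 1.1% of all tested genes, and no read at 6 h for 0 of the 22, against 0.363%. The filter kept a gene that was counted at either time, so HOX genes counted at 6 h only passed through that time, and these counts describe the tested genes and not the 39. Of the 17 untested genes, 8 had no read in any library and 9 had at most 6 reads in any library. Hours of treatment cannot be told apart from any other difference between the 2 sets of libraries.

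Both treatments gave this division in libraries that they do not share. In the vehicle libraries 16 of the 22 were called (64.5% of all tested genes). Of these, 15 HOX genes were lower at 24 h (32.6% of all tested genes) and HOXB4 was higher (31.9%). In the T3 libraries 17 were called (70.4%), of which 16 were lower (35.2%) and HOXC4 was higher (35.1%). HOXC6 was called lower in the T3 libraries (log2 fold change -1.05, SE 0.42, adjusted p = 0.0332), against 0.13 (SE 0.43, adjusted p = 0.798) in the vehicle libraries, but the difference between these values did not pass (adjusted p = 0.351). The call for HOXC6 was lost without T3 library 1 of 6 h (adjusted p = 0.0525) and without T3 library 2 of 6 h (0.264). HOXC4 reached 2.03 (SE 0.75, adjusted p = 0.0234) in the T3 libraries and 1.24 (SE 0.61, adjusted p = 0.0829) in the vehicle libraries. Its call in the T3 libraries was lost without T3 library 1 (adjusted p = 0.124) or 2 (0.104) of 6 h and without vehicle library 1 of 24 h (0.0511). HOXC13, lower in both treatments, lost its call without either vehicle library of 6 h in the vehicle contrast (adjusted p = 0.101 and 0.084) and without vehicle library 2 of 24 h (0.142). In the T3 contrast it lost the call without any of the 4 libraries of 6 h (0.0687 to 0.172) and without T3 library 1 of 24 h (0.0681). HOXB13 lost its call in the vehicle contrast without vehicle library 1 of 6 h (0.163) and without vehicle library 2 of 24 h (0.0559). DESeq2 called 18 of 24 HOX genes with an adjusted p in the averaged contrast, against 54.8% of all genes.

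Levels of different genes were compared per kilobase of annotated exon. At 6 h the order of CPM per kilobase was HOXA11 (23.9 ± 3.51), HOXA10 (19.7 ± 1.71), HOXA13 (16.1 ± 3.31), HOXD10 (12.1 ± 1.31), HOXC10 (11.5 ± 0.683) and HOXB7 (11.1 ± 0.486). Neighbours in that order lay within their summed SD of each other, and the next genes, HOXD9 (4.47 ± 0.621) and HOXB6 (4.17 ± 1.05), lay well below. At 24 h the order was HOXB7 (2.59 ± 0.898), HOXC8 (2.28 ± 0.679), HOXC9 (1.38 ± 0.512), HOXC6 (1.27 ± 0.475), HOXC4 (1.22 ± 0.507), HOXB4 (1.01 ± 0.495) and HOXB3 (0.929 ± 0.25), and neighbours again lay within their summed SD. HOXB7 was thus the only gene among the leading 6 at both times. Counting at a threshold of 1 CPM in the mean of a time, 10 of the 39 genes reached it at 24 h and 22 at 6 h, 9 of them at both.

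Overlapping annotation limits some of these levels. In GENCODE 29, 62.5% of the exon bases of HOXA7 overlap the antisense gene HOXA-AS3, 31.1% of HOXA11 overlap HOXA11-AS, and HOXB6 (32.9%), HOXA9 (27%), HOXA10 (26.3%) and HOXD11 (21.4%) overlap other genes of their cluster. The strand setting of the counting is not given in the sources used here, so reads of such pairs cannot be told apart. HOXB4 (17.1%) and HOXC4 (17.8%), both called higher at 24 h, overlap other genes on their own strand. So do HOXD10 (16.8%) and HOXC6 (15.7%), and a strand setting would not separate such reads. Reads assigned to more than 1 gene were set aside and made up 3.22 to 4.15% of gene and ambiguous reads at 24 h and 5.09 to 5.26% at 6 h. HOXB7, HOXD9, HOXC8 and HOXC11 overlap no other gene, and HOXA13 only by 1.69% of its exon bases.

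The comparison of T3 with vehicle asks whether the hormone changed HOX expression within a time. At 6 h no HOX gene passed the threshold in edgeR's test of T3 against vehicle, against 7.64% of all tested genes. DESeq2 called 0 of the 12 to which it gave an adjusted p, against 6.48% of all genes. In edgeR 4 of 22 had an unadjusted p under 0.05 (HOXA13, HOXB4, HOXB9 and HOXC4), against 23.2% of all tested genes. HOXA13 had 101.8 and 89.4 CPM with T3 and 63.9 and 73.4 CPM with vehicle (log2 fold change 0.48, SE 0.18, adjusted p = 0.115). The groups of 2 did not overlap, and HOXA13 passed when only the 4 libraries of 6 h were fitted (0.47, adjusted p = 0.00857) and not after removal of GC and length trends (0.32, adjusted p = 0.324). HOXA11 (0.32, SE 0.21, adjusted p = 0.386) and HOXA10 (0.19, SE 0.18, adjusted p = 0.576) had smaller values on the same side. The HOXA sum was 254.9 ± 15.7 CPM with T3 and 202.3 ± 3.24 CPM with vehicle (SD, n = 2 each), while the HOXD sum was 49.2 ± 7.29 CPM with T3 and 46.4 ± 1.2 CPM with vehicle.

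The low genes at 6 h carried larger values and wider errors. HOXB4 had 11 reads with T3 and 0 with vehicle, at least 2.74-fold higher with T3 (adjusted p = 0.0877). It passed without the filter on low counts (adjusted p = 0.0443) and without T3 library 2 of 24 h, which changes the shared estimate of the spread (adjusted p = 0.0497). HOXC4 had 0.361 and 0.602 CPM with T3 and 2.1 and 1.63 CPM with vehicle (log2 fold change -1.84, SE 0.84, adjusted p = 0.2). HOXB9 had 1.08 and 0.201 CPM with T3 and 2.7 and 1.63 CPM with vehicle (log2 fold change -1.99, SE 0.93, adjusted p = 0.209). Among posterior genes with more reads, HOXC10 (-0.07, SE 0.27) and HOXD10 (0.08, SE 0.25) lay near 0. HOXA13 (0.48), HOXA11 (0.32) and HOXA10 (0.19), which had the most reads, lay above 0. HOXC11 (-0.81, SE 0.57) and HOXB13 (0.55, SE 0.55), posterior genes with fewer reads, lay further out on either side. Of the 21 tested genes with reads in both 6 h groups, 10 had a higher and 11 a lower fitted value with T3 (median log2 fold change -0.07). Their SE ran from 0.18 to 0.93 on the log2 scale, so small differences were not detectable at this depth.

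At 24 h no HOX gene passed in edgeR's test of T3 against vehicle as labelled, against 13.3% of all tested genes. Of the 13 tested genes with reads in both groups, 11 had a lower and 2 a higher fitted value in T3 (median log2 fold change -0.68). Over all 22 tested HOX genes, some of them without a read at 24 h, the median was -0.27, against -0.01 over all tested genes. DESeq2 called 0 of the 6 to which it gave an adjusted p, against 11.7% of all genes. In edgeR 3 of 22 had an unadjusted p under 0.05 (HOXB6, HOXC6 and HOXC10), against 28.8%. HOXB6 had 1 read in T3 and 8 in vehicle libraries (10.9-fold lower in T3, interval 1.46 to 482.0, adjusted p = 0.0808). HOXC6 had 2.93 and 3.23 CPM in T3 and 5.4 and 6.4 CPM in vehicle libraries (log2 fold change -0.94, SE 0.41, adjusted p = 0.136). HOXC10 had 0.463 and 1.04 CPM in T3 and 1.35 and 2.23 CPM in vehicle libraries (-1.22, SE 0.52, adjusted p = 0.128), and HOXC4 had 2.01 and 2.3 CPM in T3 and 4.72 and 4.32 CPM in vehicle libraries (-1.05, SE 0.53, adjusted p = 0.2). The HOXC sum was 11.4 and 14.9 CPM in T3 and 21.6 and 22.2 CPM in vehicle libraries. The HOXB sum overlapped, with 19.4 and 14.4 CPM in T3 and 16 and 23.1 CPM in vehicle libraries. Without T3 library 1 of 24 h HOXC11 was called lower in T3 (adjusted p = 0.0383), and without T3 library 2 HOXC13 was (adjusted p = 0.0482), since the T3 library left in each case had no read of that gene. The 7 genes without a read at 24 h gave no comparison there.

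**Figure D5:**
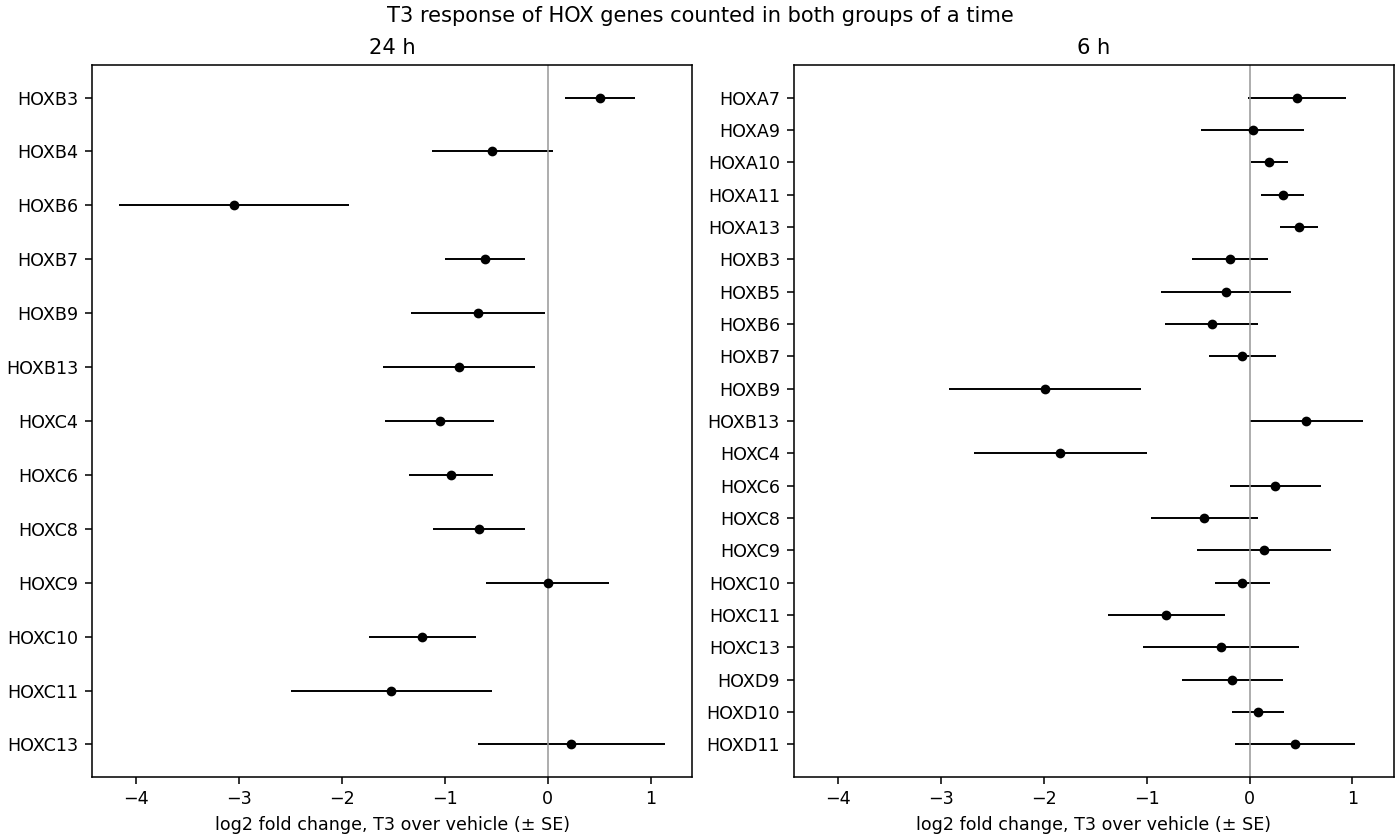
Log2 fold change of T3 over vehicle with its SE for HOX genes with reads in both groups, at 24 h (13 genes) and at 6 h (21 genes), from the fit over all genes. No gene passes an adjusted p of 0.05 at either time, and the errors are widest for genes with few reads such as HOXB6 at 24 h and HOXB9 at 6 h.

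The difference between the T3 responses at 24 h and 6 h called no HOX gene in edgeR, against 1.84% of all tested genes. This contrast uses the treatment labels at 24 h, which KLF9 and HR go against, and its values hold only for the groups as labelled. DESeq2 called 0 of 7, against 2.36% of all genes. In edgeR 2 of 22 had an unadjusted p under 0.05 (HOXB4 and HOXB6), against 15.7%. The smallest adjusted p was 0.132, for HOXB4, and fell to 0.0472 without T3 library 1 of 24 h.

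The long noncoding RNAs of the posterior HOXA cluster that could be tested were counted at 6 h and not at 24 h. HOTTIP, transcribed beside HOXA13, had 0 reads at 24 h and 16.6, 14.6, 13.8 and 15.9 CPM at 6 h, at least 132.1-fold lower at 24 h (adjusted p = 6.73e-10). HOXA11-AS1 had 0 reads at 24 h and 12.6, 13.8, 16.8 and 8.56 CPM at 6 h (at least 117.2-fold lower at 24 h, adjusted p = 4.31e-09). HOXA-AS4 was at least 20.1-fold lower at 24 h (adjusted p = 2.5e-05) and HOXC-AS5 17.5-fold lower (interval 6.27 to 67.6, adjusted p = 0.000125). These were the 4 tested of the 13 such RNAs found among the rows, and all 4 were called lower at 24 h, as were 38.2% of all tested genes. They passed the filter on low counts through the 6 h libraries, so their count lends nothing to either direction. HOTAIR, from the HOXC cluster, was too low to be tested and had 1.7, 1.27, 2.7 and 1.04 CPM at 24 h and 1.8, 1.6, 0.9 and 1.63 CPM at 6 h, with overlapping groups. HOXB-AS1 had 28 reads at 24 h and 1 at 6 h (14.4-fold higher at 24 h, interval 2.38 to 589.2), also untested.

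Of the 11 TALE genes 10 were counted at both times and tested, while PKNOX2 had 1 read at each time. At 24 h 2 were higher and 3 lower, against 38.9% higher and 38.2% lower over all tested genes. PBX3 had 73.6, 72.9, 51.1 and 66.5 CPM at 24 h and 20.2, 16.8, 19.8 and 25.3 CPM at 6 h (3.43-fold higher at 24 h, counting interval 3.01 to 3.91, adjusted p = 4.56e-09). Each 24 h library was above each 6 h library. PBX2 was also higher (log2 fold change 0.86, adjusted p = 6.45e-06), and the repressors TGIF1 (-1.92, adjusted p = 6.69e-11, and -2.60 with GC and length trends removed) and TGIF2 (-1.03, adjusted p = 1.65e-07) were lower at 24 h. MEIS1 (-0.51, adjusted p = 0.109), MEIS2 (-0.13, adjusted p = 0.607), MEIS3 (0.34, adjusted p = 0.213), PKNOX1 (0.12, adjusted p = 0.49) and PBX4 (0.01, adjusted p = 0.999) did not pass, although MEIS1, MEIS2 and MEIS3 did after removal of GC and length trends (-1.26, -0.94 and 1.29).

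Of the 30 tested Polycomb genes, 15 were higher and 8 lower at 24 h, against 38.9% higher and 38.2% lower over all tested genes. Of the 14 tested trithorax and H3K27 demethylase genes, 5 were higher and 6 lower, against the same shares. With GC and length trends removed, 11 Polycomb genes were higher and 8 lower. For the trithorax and demethylase genes it was then 6 higher and 5 lower. CBX2, a Polycomb subunit whose loss in mice shifts the axial skeleton, had 10.2, 8.18, 13.7 and 15.2 CPM at 24 h and 101.4, 96.7, 112.7 and 95.8 CPM at 6 h (log2 fold change -3.14, SE 0.13, adjusted p = 4.15e-13). EZH2, the H3K27 methyltransferase, was higher at 24 h, with 242.0 ± 16.5 CPM at 24 h and 115.4 ± 5.1 CPM at 6 h (1.07, SE 0.09, adjusted p = 5.68e-09). PCGF5 (1.40, adjusted p = 1.26e-09) and MTF2 (1.32, adjusted p = 1.92e-08), further Polycomb subunits, were also higher, with smaller values of 0.35 and 0.49 once GC and length trends were removed. CBX2 was then at -2.37 and EZH2 at 0.63. Among the activating factors the demethylase KDM6A (1.63, adjusted p = 1.08e-09) and the methyltransferase KMT2C (1.40, adjusted p = 3.04e-09) were higher at 24 h. The methyltransferase DOT1L (-1.54, adjusted p = 7.1e-09) was lower. Once those trends were removed, KDM6A was at 1.15, KMT2C at 0.76 and DOT1L at -0.65. KMT2B was lower too (-1.16, adjusted p = 1.87e-08), a call lost when GC and length trends were removed (-0.15, adjusted p = 0.166). In the libraries labelled T3 at 24 h, 5 of the 14 trithorax and demethylase genes were lower and 0 higher than in vehicle libraries, against 7.75% lower and 5.58% higher over all tested genes.

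Genes that flank the clusters were mostly counted at both times. Of 16 listed, 11 were tested, and of these 8 were higher (38.9% of all tested genes) and 1 lower (38.2%) at 24 h. With GC and length trends removed, 5 were higher and 3 lower. That fit did not hold KIAA1715, called higher without it, since the annotation held this gene under another symbol. Next to HOXC, CBX5 had 1542.7 ± 164.8 CPM at 24 h and 433.2 ± 42.6 CPM at 6 h (log2 fold change 1.83, SE 0.09, adjusted p = 1.07e-11, and 1.02 with GC and length trends removed). KIAA1715 (LNPK), beside HOXD, had 92.7 ± 11.8 CPM at 24 h and 40.4 ± 9.51 CPM at 6 h (1.19, SE 0.14, adjusted p = 4.7e-07). CALCOCO1 (1.63, adjusted p = 3.61e-09) and CALCOCO2 (1.37, adjusted p = 3.39e-10), from the neighbourhoods of HOXC and HOXB, were also higher at 24 h.

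Of 25 other transcription factors of regional identity, 9 were tested. At 24 h 4 were higher and 4 lower, against 38.9% higher and 38.2% lower over all tested genes, so the share called was near the background. PITX1, a hindlimb and first branchial arch factor, had 0.154, 0, 2.7 and 2.68 CPM at 24 h and 88.4, 86, 82.5 and 79.9 CPM at 6 h (log2 fold change -7.40, SE 0.22, adjusted p = 9.71e-15). With GC and length trends removed the value for PITX1 was -5.59, and without T3 library 1 of 24 h it was -8.29. At 24 h the libraries labelled vehicle held 3.21 and 3.18% of its 6 h mean and those labelled T3 0.183 and 0%, and this difference between treatments was called (-4.90, SE 0.67, adjusted p = 0.000584). HOXA13 and HOXA10 had no read in the same vehicle libraries, where the limit of 3 reads was 0.544 to 0.924% of their 6 h means. Other HOX genes had reads there. HOXC10 held 5.06 and 8.36% of its 6 h mean, HOXB6 10.4 and 4.11%, and HOXC11 14.5 and 7.68%. TBX1, a pharyngeal arch gene, had 1.39, 0, 0 and 0.595 CPM at 24 h and 9.38, 10.6, 18 and 16.3 CPM at 6 h (-4.74, SE 0.55, adjusted p = 1.14e-06). The value for TBX1 was -2.69 with GC and length trends removed and -7.04 without T3 library 1 of 24 h, and it was also lower without vehicle library 2 of 24 h. TBX18, which acts in heart and urinary tract mesenchyme, had 5.71, 8.64, 2.92 and 3.72 CPM at 24 h and 2 reads at 6 h (38.6-fold higher at 24 h, interval 10.5 to 321.6, adjusted p = 2.05e-06). LHX1, a kidney and head organiser gene, had 5.25, 8.64, 5.17 and 6.55 CPM at 24 h and 0.361, 0, 1.5 and 0.408 CPM at 6 h (12.9-fold higher at 24 h, interval 6.15 to 32.7, adjusted p = 4.51e-06).

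Cell type markers moved with time beside the HOX genes, and their part in the HOX difference was not tested. The 12 thyroid markers summed to 149.4 to 193.8 CPM at 24 h and 27.5 to 43.6 CPM at 6 h. PAX8, a thyroid transcription factor, made up most of the 24 h sums but not of the 6 h sums. It had 107.3, 116.2, 113.4 and 154.0 CPM at 24 h and 4.33, 4.01, 9.9 and 13.4 CPM at 6 h (log2 fold change 4.15, SE 0.16, adjusted p = 2.27e-13). Over pooled libraries, the thyroid factors FOXE1 and HHEX had 21 and 15.9 CPM at 24 h and 11.1 and 15.7 CPM at 6 h. Thyroglobulin, TSHR and DUOX2 had no read at 6 h and at most 0.576 CPM in any library at 24 h, and NKX2-1 had at most 0.722 CPM in any library. Thus thyroglobulin, TSHR, DUOX2 and NKX2-1 were absent or near absent at both times, unlike FOXE1 and HHEX. The 10 epithelial markers summed to 444.1 to 594.9 CPM at 24 h and 1080.0 to 1251.3 CPM at 6 h, with KRT19 at 0 in the 6 h libraries. Of the 7 epithelial markers tested, 6 were lower (38.2% of all tested genes) and 1 higher (38.9%) at 24 h. KRT7, KRT8 and KRT18 made up most of these sums, while the tight junction gene OCLN was higher at 24 h, with 26.6 ± 10.1 CPM at 24 h and 2.06 ± 1.42 CPM at 6 h. Over pooled libraries, EPCAM, CLDN4 and CDH1 had 2.43, 1.48 and 0.152 CPM at 24 h and 9.3, 10.3 and 1.03 CPM at 6 h. ESRP1 went the other way, with 1.44 CPM at 24 h and 0.148 CPM at 6 h. The 10 fibroblast markers summed to 628.0 to 1248.2 CPM at 24 h and 115.9 to 218.4 CPM at 6 h, most of it COL1A1. Over pooled libraries, COL1A1 had 863.6 CPM at 24 h and 138.5 CPM at 6 h, and PDGFRB 22.3 and 17.3 CPM. Of the 4 fibroblast markers tested, 2 were higher (38.9% of all tested genes) and 2 lower (38.2%) at 24 h. COL3A1, DCN, LUM and FAP were at 0 at 24 h, and COL1A2, PDGFRA, THY1 and POSTN at 0 at 6 h. The 7 endothelial markers summed to 0.926 to 2.68 CPM at 24 h and 0.361 to 0.9 CPM at 6 h, with CDH5 and TIE1 at 0 at both times and PECAM1 and KDR at 0 at 6 h. The 7 leukocyte markers summed to 0 to 0.893 CPM at 24 h and 1.5 to 2.85 CPM at 6 h, with CD3E and MS4A1 at 0 at both times and LYZ at 0 at 6 h. The 6 C cell markers summed to 0.309 to 1.79 CPM at 24 h and 0 to 0.722 CPM at 6 h, with CALCA and GFRA4 at 0 at both times and CALCB at 0 at 6 h. In such bulk libraries fewer cells that express a gene and less of its RNA per cell cannot be told apart.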

How the data were processed

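Gene counts of the 8 libraries were used as deposited by the authors, as raw whole-number counts per gene. CASAVA 1.7, STAR 2.7, HTSeq, DESeq2 and hg38 are named per the submitters' processing notes, and the sources used here give neither the annotation release nor the strand setting. The table's 5 summary rows were left out of library sizes and tests. They held reads that did not map uniquely (47.6 to 67.4% of a library's table), reads in no gene (19 to 28.8%) and ambiguous reads (0.714 to 0.949%). Ambiguous reads, which fall on more than 1 gene, are lost to overlapping HOX genes.

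Counts were fitted in R 4.3.3 with edgeR 4.0.16 (limma 3.58.1) as 1 coefficient per group over the 8 libraries, with TMM scaling, filterByExpr, the robust quasi-likelihood F test on 4 residual degrees of freedom before moderation, Benjamini-Hochberg adjustment over 14611 genes and a threshold of 0.05. All adjusted p-values without another tool's name are from this fit. The biological coefficient of variation was 13.1%. The fit was tested on simulated data with known fold changes. CPM used TMM-scaled library sizes. Where a group had no read, folds were set against 3 reads over the group, and ratios carry exact 95% counting intervals. Gene lengths, GC content and exon overlaps came from GENCODE 29, and GC and length trends were removed by lowess with a span of 0.3. DESeq2 1.42.0, RLE scaling, 2 other filters, fits of only the libraries compared, replicate blocks and leaving out each library in turn were the alternatives.

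HOX genes and lists were chosen with earlier results of these data known. HOX genes were named, and from the other lists up to 4 called genes with the smallest p in the averaged time contrast, every tested TALE gene, markers at 0, KLF9 and HR. Other genes were named after their values were seen. Of 223 list entries, 218 had a row in the table, 4 of them under an older symbol. Protein sequences were not used here, and a few genes of the lists that the rule would name are not reported here.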

Additional observations from a re-analysis of the deposited data

How the results depend on the processing

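In the averaged contrast of 24 h with 6 h, 16 of the 17 called HOX genes kept their direction and call in every alternative run for it. These included 8 that left out a library, while fits of only the libraries compared were not run for this contrast. The exception was HOXC13 with the 2 settings that removed GC and length trends. Leaving out libraries gave 13 to 15 lower in the vehicle libraries and 14 to 16 lower in the T3 libraries. The averaged count stayed at 2 higher and 15 lower without any 1 library, and ran to 3 higher and 14 lower with GC and length trends removed. Within the vehicle libraries 1 HOX gene was higher at 24 h, but 2 with GC and length trends removed or with only the libraries compared, and 1 to 2 when libraries were left out. Within the T3 libraries 1 was higher, but 0 without the low-count filter or with DESeq2, 3 with GC and length trends removed, 2 with these and the replicate block within time, and 0 to 2 when libraries were left out. For T3 against vehicle at 6 h, 1 HOX gene instead of 0 was higher without the low-count filter (HOXB4) and with only the libraries compared (HOXA13), and 0 to 1 when libraries were left out. Leaving out libraries gave 0 to 1 lower for T3 at 24 h and 0 to 1 lower for the difference of the T3 responses. Signs turned only in uncalled results. HOXC9 gave 0.43 with GC and length trends removed and 0.38 with the replicate block added, and PKNOX1 gave -0.23 and -0.24. When libraries were left out, HOXC8 ran over -0.04 to 0.32, PKNOX1 over -0.05 to 0.26 and PBX4 over -2.31 to 0.56, with PBX4 called at -2.31 without T3 library 1 of 24 h (adjusted p = 0.0368). HOXC13 for T3 at 24 h gave -0.09 with the replicate block within time, -0.28 without vehicle library 2 of 24 h, and -5.32 to 1.12 over all libraries left out, the lowest without T3 library 2 of 24 h, which leaves a T3 library with no read. The cause of these changes was otherwise not tested. Of the 4 called cluster RNAs, 1 could be fitted with GC and length trends, since the annotation held the others under other symbols. Over all genes, the lower share of the calls for T3 at 6 h was 50.5%, and 66% with GC and length trends removed; for the difference of the T3 responses it was 53.9%, and 40.8%. Replicate numbers did not pair the libraries (correlations of deviations -0.0437 between T3 and vehicle at 24 h, -0.00362 at 6 h, -0.0286 between times in T3 and 0.0972 in vehicle), and the replicate block left the averaged count at 2 higher and 15 lower. Where 1 library is left in a group it is assumed to vary like the others. With 2517983 gene counts in the shallowest library, HOX genes with few reads were not resolved.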

Other observations

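Retinoic acid is a known inducer of anterior HOX genes, and 12 of the 18 genes listed for its synthesis, transport, receptors and breakdown were tested. In the contrast of 24 h with 6 h, 3 were higher (38.9% of all tested genes) and 5 lower (38.2%), which changed to 8 higher and 1 lower when GC and length trends were removed. RDH10, which makes the retinaldehyde from which retinoic acid is formed, had 11, 16, 10.3 and 8.04 CPM at 24 h and 277.6, 279.5, 308.9 and 276.3 CPM at 6 h (log2 fold change -4.68, SE 0.13, edgeR adjusted p = 3.08e-15). The groups lay far apart, with each 6 h library above each 24 h library. STRA6, the receptor for retinol-binding protein, had 3.9 ± 1.3 CPM at 24 h and 0.0501 ± 0.1 CPM at 6 h (SD, n = 4 each), with 1 read in all at 6 h. The receptor RXRA was lower at 24 h (-0.91, SE 0.12, edgeR adjusted p = 2.6e-06), a call lost when GC and length trends were removed (-0.25, adjusted p = 0.0617). How these values relate to the HOX genes was not tested.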
